A study of Mus musculus with 6 samples.

Results

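Genes of the vessel wall, 10 in all, were followed across whole mouse adrenal glands: 4 contractile genes of smooth muscle (Acta2, Tagln, Myh11, Cnn1) and 6 genes commonly used as pericyte markers (Rgs5, Pdgfrb, Cspg4, Notch3, Kcnj8, Abcc9). They were chosen by symbol, and each matched 1 Ensembl mouse gene among the 54532 genes of the count table. Bulk RNA sequencing covered 3 samples labelled WT and 3 labelled VEGF/LysM, and the series asks how VEGF-A from macrophages bears on the whole gland. VEGF/LysM joins the name of the endothelial growth factor to LysM, an older name of the lysozyme gene Lyz2, whose promoter is widely used to drive Cre in myeloid cells. The labels give neither the alleles nor the age, strain or number of the animals, and nothing says that replicates came from separate mice, so every p rests on how far these samples vary, and that variation may be technical only.

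Smooth muscle cells and pericytes are the mural cells that wrap blood vessels. Smooth muscle cells of arteries and arterioles hold a contractile apparatus of smooth muscle actin and myosin, and the genes for it are switched on by the transcription factor SRF with its partner myocardin at a DNA element called the CArG box. Pericytes sit on capillaries, are recruited by PDGF-B from endothelial cells through the receptor Pdgfrb, and carry little of that apparatus. In the adrenal the capsule also holds cells that express some contractile genes, and capillaries with fenestrated endothelium run between the cords of steroid-producing cells. In bulk tissue, fewer cells of a type and less RNA per cell cannot be told apart.

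Library totals ran from 16476879 to 18671950 counts. Vegfa, the gene named in the group, stood at 295, 241 and 332 CPM across the WT libraries, against 180, 193 and 501 CPM across those of VEGF/LysM (CPM: counts relative to library size, scaled by TMM), so the groups overlapped. WT replicate 3 stood apart: 20 hepatocyte markers summed to 97344 CPM there, to 1000.1 CPM in VEGF/LysM replicate 3 and to 146 to 364 CPM in the other libraries. In WT replicate 3 the sums of 10 kidney tubule and 14 lymphocyte markers were 50.1 and 5.72 times the mean of WT replicates 1 and 2, and the sums of 8 steroidogenic and 8 chromaffin markers were 0.591 and 0.599 times that mean. The fold changes of the 10 genes are therefore given with and without WT replicate 3. The part these other tissues had in any result was not tested.

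Acta2 encodes smooth muscle actin, the most abundant actin of contractile mural cells (ENSMUSG00000035783, chromosome 19, 34241090 to 34255590, minus strand, GRCm38). Its promoter holds a pair of elements close to the CArG box, printed here because SRF acts on smooth muscle genes through such sites, beside CArG boxes of Myl9, a myosin light chain, and Vcl, which encodes the adhesion protein vinculin. Each line is 30 bases in the direction of the gene, with the matched element in capitals.
Acta2 at chr19:34255438-34255467: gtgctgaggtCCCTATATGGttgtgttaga
Acta2 at chr19:34255388-34255417: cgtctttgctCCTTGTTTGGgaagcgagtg
Myl9 at chr2:156775293-156775322: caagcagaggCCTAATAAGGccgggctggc
Vcl at chr14:20929161-20929190: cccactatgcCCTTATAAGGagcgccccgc

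The sequences are RefSeq's, on build GRCm38.p6, and the elements begin at -84 and -34 (Acta2), -161 (Myl9) and -227 (Vcl) from the RefSeq gene start. Acta2 is on the minus strand, Myl9 and Vcl are on the plus strand, and both Acta2 sites lie upstream of the RefSeq start but inside the first exon of the GENCODE annotation. The Myl9 and Vcl elements are exact CArG boxes, and both Acta2 elements carry 1 C or G inside the core of A and T. Of 32851 windows of 250 bases before to 50 bases after a gene start, searched on both strands, 1.63% held an exact CArG box and 8.5% the form with 1 C or G, a form added to the search after the exact box was not found in Acta2. Windows were available for 7 of the 10 genes, and not for Tagln, Myh11 or Pdgfrb. Of the contractile genes only Acta2 and Cnn1 were thus searched. An exact CArG box was in 0 of the 7, the relaxed form was in Acta2 alone, and TATAAA and GTGGGAA, a motif of the Notch effector RBPJ, were in 0 of the 7 (13.6% and 6.38% of all windows). Among other contractile genes with a window, 2 of 19 held an exact box, Myl9 and Vcl. These counts are of genes, while the shares of all windows count the 32851 windows of 27025 genes singly. A match describes letters, not a working site.

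Acta2 stood at 37.8, 37.6 and 76.9 CPM across the WT libraries, against 20.6, 32.3 and 17.1 CPM across those of VEGF/LysM. All 3 VEGF/LysM libraries lay below all 3 WT libraries, although VEGF/LysM replicate 2 came close to WT. Setting WT replicate 3 aside cannot change this order, since that library held the highest WT value. The means were 50.8 ± 22.6 and 23.3 ± 7.93 CPM (SD, n = 3), and edgeR's quasi-likelihood test gave a log2 fold change of -1.12 ± 0.37 (SE), with a 95% interval of -1.985 to -0.25. Acta2 did not pass after Benjamini-Hochberg adjustment over all genes (adjusted p = 0.999 in edgeR; unadjusted 0.0186). Without WT replicate 3 its log2 fold change was -0.69 ± 0.25 (edgeR, unadjusted p = 0.0230, adjusted p = 0.99996). VEGF/LysM replicate 3 gave the lowest value, and without both replicates labelled 3 the log2 fold change was -0.50 ± 0.23 (95% interval -1.03 to 0.02, unadjusted p = 0.0576 in edgeR). The unadjusted p was also above 0.05 without VEGF/LysM replicate 1 (0.0659 in edgeR) and without VEGF/LysM replicate 3 (0.0664).

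Myh11, the smooth muscle myosin heavy chain (ENSMUSG00000018830, chromosome 16, 14194535 to 14291372, minus strand), stood at 17.7, 19.4 and 49.7 CPM across the WT libraries, against 12.7, 18.9 and 9.30 CPM across those of VEGF/LysM. The ranges overlapped, since VEGF/LysM replicate 2 lay between WT replicates 1 and 2. Its log2 fold change was -1.08 ± 0.46 (SE; adjusted p = 0.999 in edgeR), and -0.45 ± 0.28 without WT replicate 3. Cnn1 encodes calponin, an actin-binding protein of differentiated smooth muscle (ENSMUSG00000001349, chromosome 9, 22099216 to 22109630, plus strand). It was the scarcest of the 10 per length and rested on 10 to 108 counts: 0.967, 1.91 and 8.02 CPM in WT and 0.645, 1.58 and 0.589 CPM in VEGF/LysM. The log2 fold change of Cnn1 was -1.92 ± 0.85 (adjusted p = 0.999 in edgeR) with WT replicate 3 and -0.61 ± 0.60 without it. Here 1 library set most of the size.

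Tagln did not follow the other contractile genes. It encodes transgelin, an actin-binding protein that smooth muscle makes early and in large amounts (ENSMUSG00000032085, chromosome 9, 45929619 to 45936058, minus strand). Tagln stood at 3.13, 2.42 and 1.11 CPM across the WT libraries, against 3.46, 1.79 and 2.65 CPM across those of VEGF/LysM, so its lowest value was in WT replicate 3, where Acta2, Myh11 and Cnn1 had their highest. The log2 fold change was 0.23 ± 0.46 (SE; adjusted p = 0.999 in edgeR), and its direction turned without WT replicate 3 (-0.08 ± 0.40). The Tagln count is uncertain: it rested on 15 to 59 counts, and 62.2% of the 31-base stretches of its transcripts also occur in another gene, 58.2% in the antisense gene Gm48529, which reads without strand cannot separate. Gm48529 itself had 5 to 32 counts. Summed, Tagln and Gm48529 gave 87, 65 and 41 counts in WT and 64, 51 and 68 counts in VEGF/LysM, and WT replicate 3 was again the lowest.

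**Figure D1:**
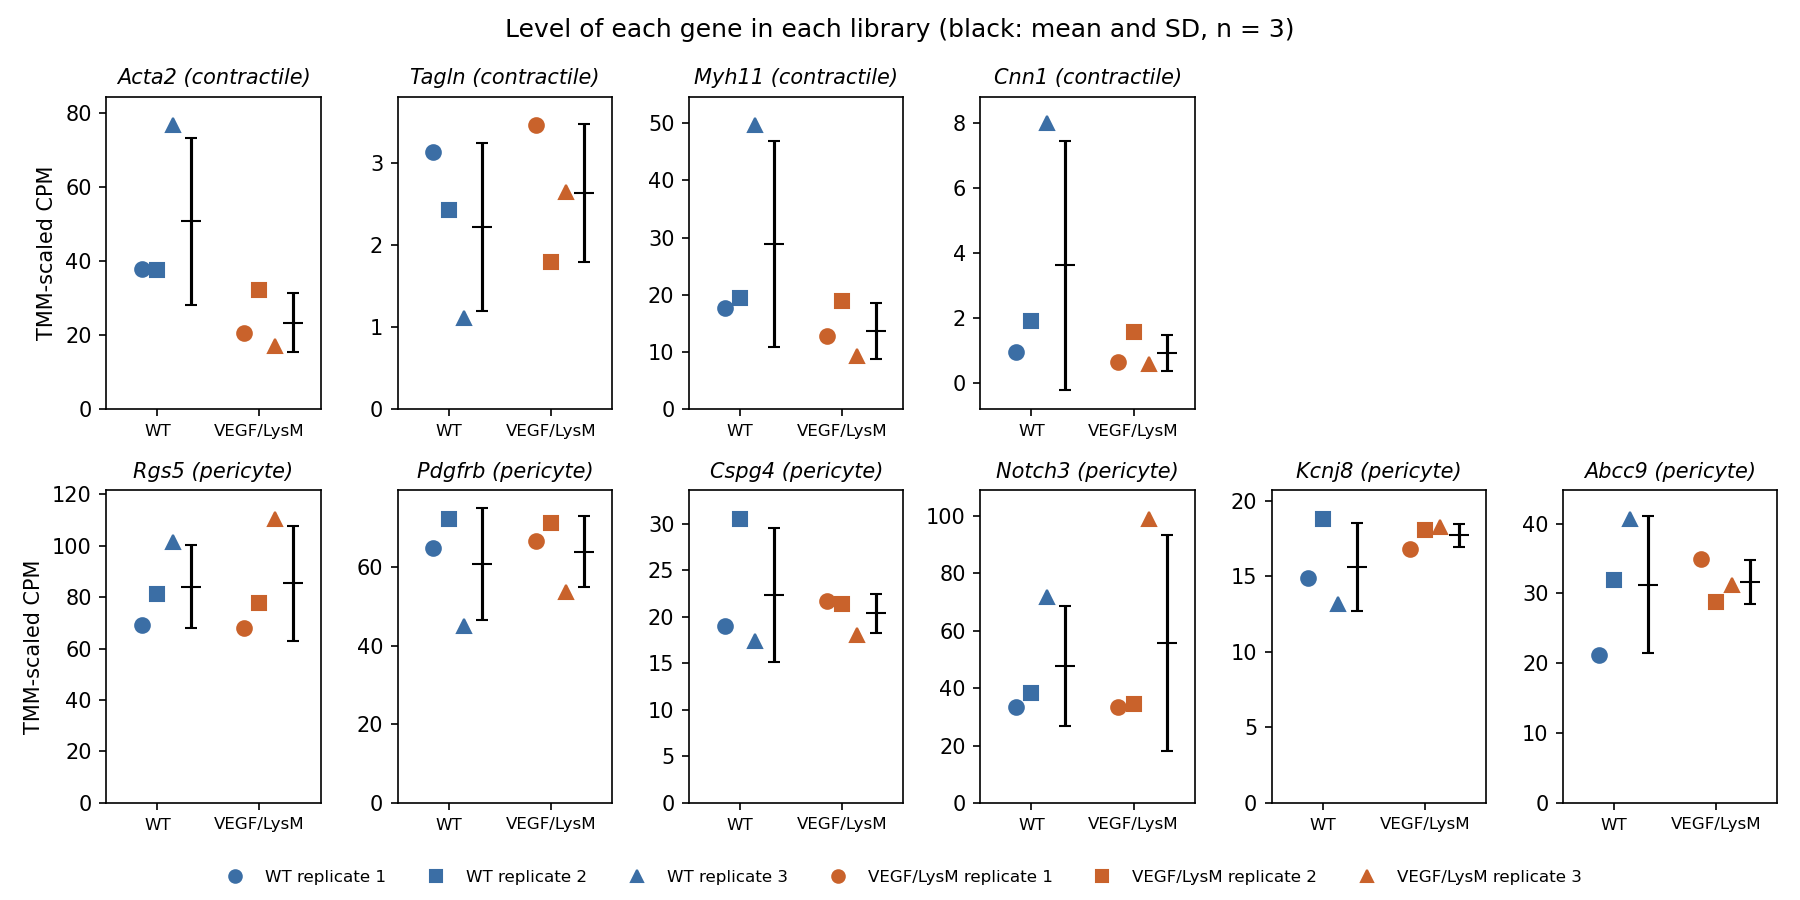
TMM-scaled CPM (vertical axis, linear) of the 4 contractile genes (top) and 6 pericyte genes (bottom) in each WT (blue) and VEGF/LysM (orange) library, with the shape giving the replicate and black bars the mean and SD of 3 libraries. Acta2, Myh11 and Cnn1 are highest in WT replicate 3 (blue triangle) and Tagln is lowest there, while Notch3 is high in both replicates labelled 3.

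Among the receptors of the pericyte group, Pdgfrb, the receptor for PDGF-B (ENSMUSG00000024620, chromosome 18, 61045150 to 61085061, plus strand), stood at 64.9, 72.2 and 44.9 CPM across the WT libraries, against 66.6, 71.1 and 53.7 CPM across those of VEGF/LysM. The groups overlapped, and in both the replicate labelled 3 was the lowest. Its log2 fold change was 0.07 ± 0.21 (SE), with a 95% interval of -0.42 to 0.57, and turned to -0.11 ± 0.16 without WT replicate 3. Notch3, the Notch receptor of arterial smooth muscle and pericytes (ENSMUSG00000038146, chromosome 17, 32120820 to 32166852, minus strand), varied most in this group. It stood at 33.4, 38.1 and 71.8 CPM across the WT libraries, against 33.3, 34.4 and 99.1 CPM across those of VEGF/LysM. Both replicates labelled 3 were thus the high ones, and the remaining 4 libraries lay within 33.3 to 38.1 CPM. Those 2 also held the most liver markers, but in the other order, with hepatocyte sums of 1000.1 (VEGF/LysM) and 97344 CPM (WT). Whether liver tissue bears on the Notch3 values was not tested. The high values of Notch3 were 2.01 (WT) and 2.93 (VEGF/LysM) times the mean of the other 2 libraries of their group. Over all genes tested, 11.9% exceeded 2 times that mean in WT replicate 3 and 6.1% in VEGF/LysM replicate 3. The log2 fold change of Notch3 was 0.22 ± 0.50, 0.63 ± 0.43 without WT replicate 3 and -0.07 ± 0.16 without both. An antisense gene, Gm17276, overlaps Notch3 with 77 to 258 counts against 568 to 1683, and 5.32% of the 31-base stretches of Notch3 occur in it.

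Cspg4 encodes NG2, a proteoglycan on the pericyte surface (ENSMUSG00000032911, chromosome 9, 56865033 to 56899870, plus strand). It stood at 19.1, 30.6 and 17.5 CPM across the WT libraries, against 21.8, 21.4 and 18.01 CPM across those of VEGF/LysM. WT replicate 2 alone was high, and the log2 fold change of -0.13 ± 0.25 (SE) turned to 0.16 without it and was -0.29 ± 0.23 without WT replicate 3. Rgs5, an inhibitor of G protein signalling and a common pericyte marker (ENSMUSG00000026678, chromosome 1, 169655501 to 169695813, plus strand), stood at 69.3, 81.4 and 101.2 CPM across the WT libraries, against 67.9, 77.5 and 110.5 CPM across those of VEGF/LysM. The same replicate number was lowest, middle and highest in each group, and the log2 fold change was 0.02 ± 0.23, or 0.17 ± 0.21 without WT replicate 3.

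Kcnj8 and Abcc9 encode the pore (Kir6.1) and the regulatory subunit (SUR2) of the ATP-sensitive potassium channel of mural cells. They are neighbours on chromosome 6, at 142564837 to 142571614 and 142587862 to 142702315, both on the minus strand, with 16247 bases and 0 coding genes between them. Kcnj8 (ENSMUSG00000030247) stood at 14.9, 18.8 and 13.1 CPM across the WT libraries, against 16.8, 18.03 and 18.2 CPM across those of VEGF/LysM, the narrowest spread of the 10 genes (coefficient of variation 13.3%). Abcc9 (ENSMUSG00000030249) stood at 21.2, 31.9 and 40.7 CPM across the WT libraries, against 34.9, 28.8 and 31.1 CPM across those of VEGF/LysM. The VEGF/LysM values of both lay inside the WT range. The log2 fold change of Kcnj8 was 0.18 ± 0.19 (SE), or 0.066 ± 0.19 without WT replicate 3. That of Abcc9 was 0.02 ± 0.25, or 0.25 ± 0.21 without that library. Per kb of exon, Kcnj8 stood at 2.31, 1.94 and 1.06 times Abcc9 in WT and at 1.58, 2.06 and 1.93 times Abcc9 in VEGF/LysM, so WT replicate 3 was the library with the most even pair. Kcnj11 and Abcc8, which form the related channel of endocrine cells, had at most 1.08 and 2.68 CPM in any library, with log2 fold changes of -0.32 ± 0.45 and -0.31 ± 0.49.

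Of the 10 genes, 0 passed at an adjusted p of 0.05, as did 0 of all 16300 genes tested (0% called; 459 genes, 2.82%, at an unadjusted p under 0.05). Without WT replicate 3 the count was again 0 of 10, against 1 of 16659 genes (0.006%), Sumo2, named after its values were seen (log2 fold change -2.35, adjusted p = 0.0368 in edgeR), and 348 (2.09%) at an unadjusted p under 0.05. At an unadjusted p under 0.05, 1 of 10 was lower in VEGF/LysM (Acta2), beside 1.94% of all genes, and 0 of 10 were higher, beside 0.871%. The fit that set WT replicate 3 aside gave the same 1 of 10, beside 0.786% lower. At that unadjusted threshold DESeq2 counted 3 of 10 (Acta2, Myh11 and Cnn1, beside 3.33% of all genes) and limma-voom with sample weights 1 of 10 (Acta2, beside 1.84%), and neither tool called any gene after adjustment. The groups did not overlap for Acta2 alone among the 10, beside 2.41% of all genes with VEGF/LysM the lower group. In the 5 remaining libraries that share of all genes was 6.9%, and 0 of 10 stood wholly higher, beside 7.49%. Acta2 was again the 1 of 10 wholly lower, which adds nothing, since removing its highest WT value cannot by itself create an overlap.

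**Figure D2:**
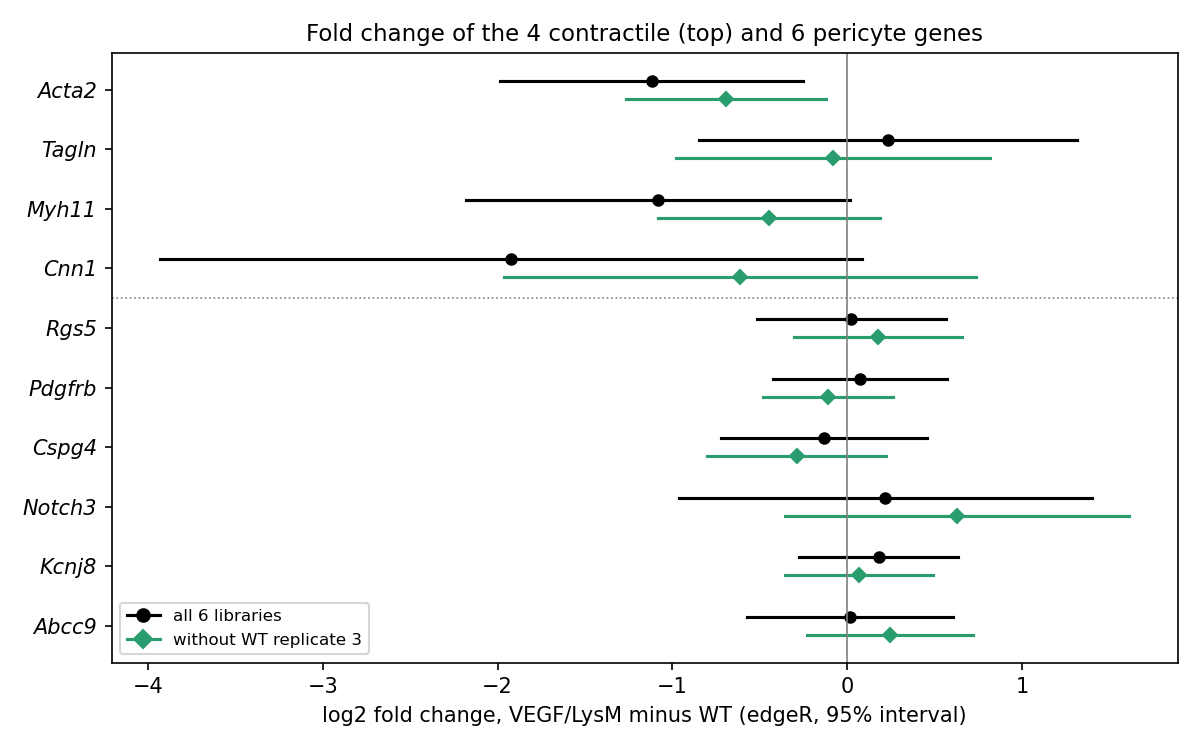
Log2 fold change, VEGF/LysM minus WT, of the 10 genes with its 95% interval from edgeR, over all 6 libraries (black circles) and without WT replicate 3 (green diamonds); the dotted line separates the 4 contractile genes above from the 6 pericyte genes below. Leaving out that library moves Acta2 from -1.12 to -0.69, Myh11 from -1.08 to -0.45 and Cnn1 from -1.92 to -0.61, and only the intervals of Acta2 exclude 0 in both fits.

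Set side by side, the contractile genes had the lower fold changes and the wider spread. Their median log2 fold change was -1.10 (range -1.92 to 0.23, 3 of 4 below 0), against 0.05 for the pericyte genes (-0.13 to 0.22, 1 of 6 below 0) and 0.0013 over all genes tested. Without WT replicate 3 the medians were -0.53 (4 of 4 below 0) and 0.12 (2 of 6 below 0), against 0.0080 over all genes, and without both replicates labelled 3 they were -0.29 and -0.02. The contractile median minus the pericyte median was thus -1.15 over all libraries and -0.28 without both. Over the 6 libraries the coefficient of variation ran from 35.6% to 125% in the contractile genes and from 13.3% to 53.4% in the pericyte genes. Over the other 5 libraries it ran from 24.0% to 51.3% and from 8.96% to 60.4%, with Notch3 the highest. These medians carry no test, because the genes were chosen with earlier results known.

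The libraries were then compared on log2(CPM + 0.5), centred on each gene's mean. The contractile median was at 0.07, 0.13 and 1.31 in WT replicates 1 to 3 and at -0.59, -0.01 and -0.92 in VEGF/LysM replicates 1 to 3. The pericyte median kept within -0.20 to 0.11 in all 6. In VEGF/LysM replicate 2 the 2 groups of genes differed by 0.03, as in WT replicate 2 (0.02), while contractile minus pericyte was -0.62 and -0.998 in VEGF/LysM replicates 1 and 3 and 1.30 in WT replicate 3. Centred without WT replicate 3, that difference was 0.43 and 0.28 in WT and -0.31, 0.29 and -0.68 in VEGF/LysM. VEGF/LysM replicate 2 lay above WT replicate 2 in both centrings, so the groups overlapped with and without WT replicate 3.

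**Figure D3:**
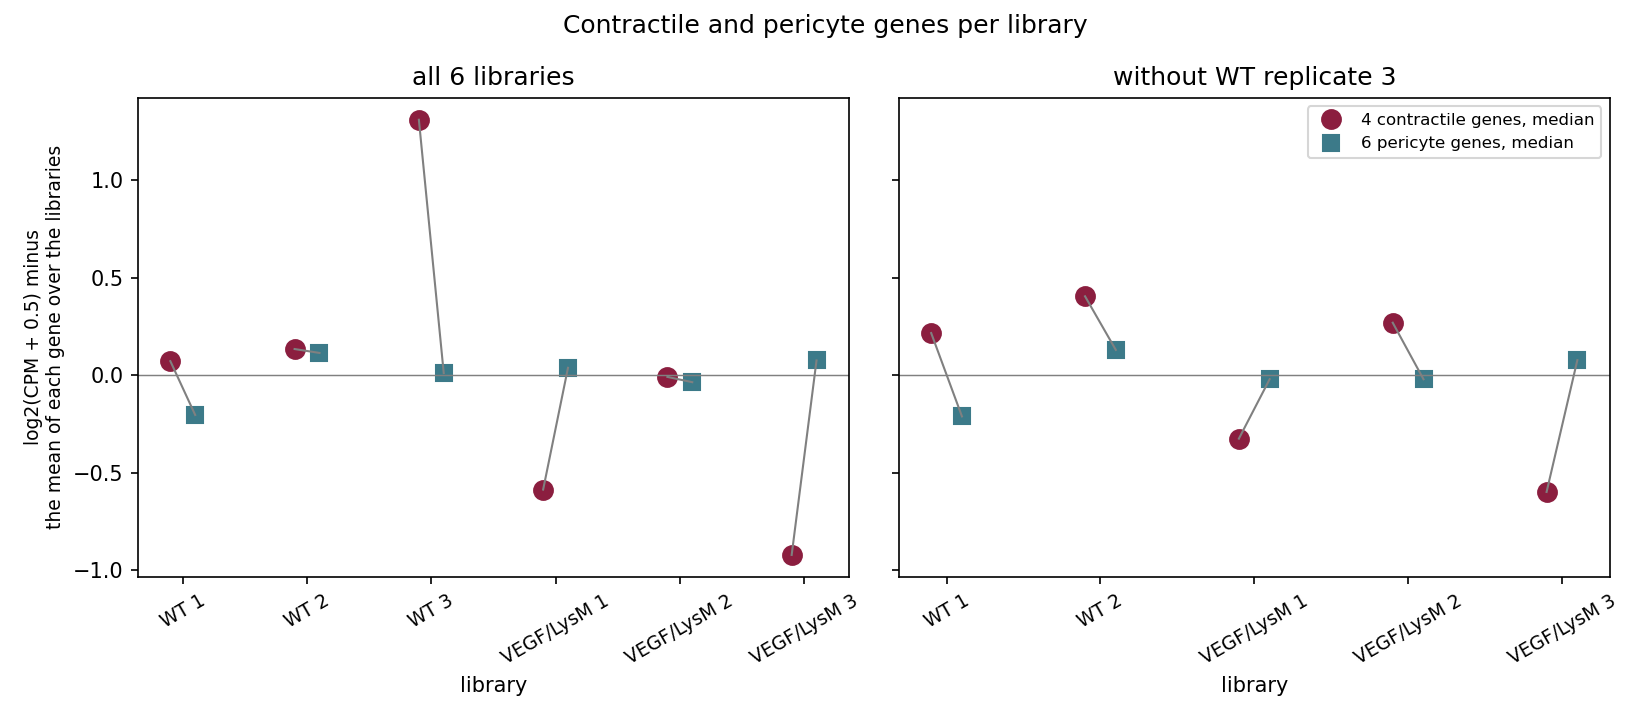
Median of the 4 contractile genes (red circles) and of the 6 pericyte genes (blue squares) in each library, as log2(CPM + 0.5) minus each gene's mean over the libraries shown, with all 6 libraries (left) and without WT replicate 3 (right); grey lines join both medians of a library. The contractile median spans -0.92 to 1.31 over all 6 libraries and the pericyte median -0.20 to 0.11.

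Ratios taken within a library do not depend on how libraries are scaled. Counts per kb of exon, summed over the 4 contractile genes and divided by the sum over the 6 pericyte genes, gave 0.521, 0.436 and 0.886 in WT and 0.298, 0.400 and 0.180 in VEGF/LysM. The 3 VEGF/LysM values were below the 3 WT values. Acta2 made up most of the contractile sum. Acta2 over Rgs5 was 1.13, 0.957 and 1.57 in WT and 0.629, 0.862 and 0.321 in VEGF/LysM. Acta2 over Pdgfrb was 1.45, 1.30 and 4.27 in WT and 0.773, 1.13 and 0.795 in VEGF/LysM. Myh11 over Pdgfrb was 0.196, 0.194 and 0.798 in WT and 0.138, 0.191 and 0.125 in VEGF/LysM. Each of these ratios was lower in all 3 VEGF/LysM libraries than in any WT library, with VEGF/LysM replicate 2 next to WT replicate 2 each time. All but Myh11 over Pdgfrb hold Acta2 in the numerator and so in part repeat its values. The other ratios computed overlapped between the groups, among them Rgs5 over Pdgfrb, Cspg4 over Pdgfrb and Cnn1 over Acta2. The share of all gene pairs that separate in this way was not computed. Within the contractile group, Myh11 over Acta2 was 0.135, 0.149 and 0.187 in WT and 0.178, 0.169 and 0.157 in VEGF/LysM, and the groups overlapped. Without WT replicate 3 all 3 VEGF/LysM values of Myh11 over Acta2 lay above those of WT. Notch3 over Pdgfrb was 0.348, 0.357 and 1.08 in WT and 0.339, 0.328 and 1.25 in VEGF/LysM, which separated the replicate number 3 and not the groups.

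**Figure D4:**
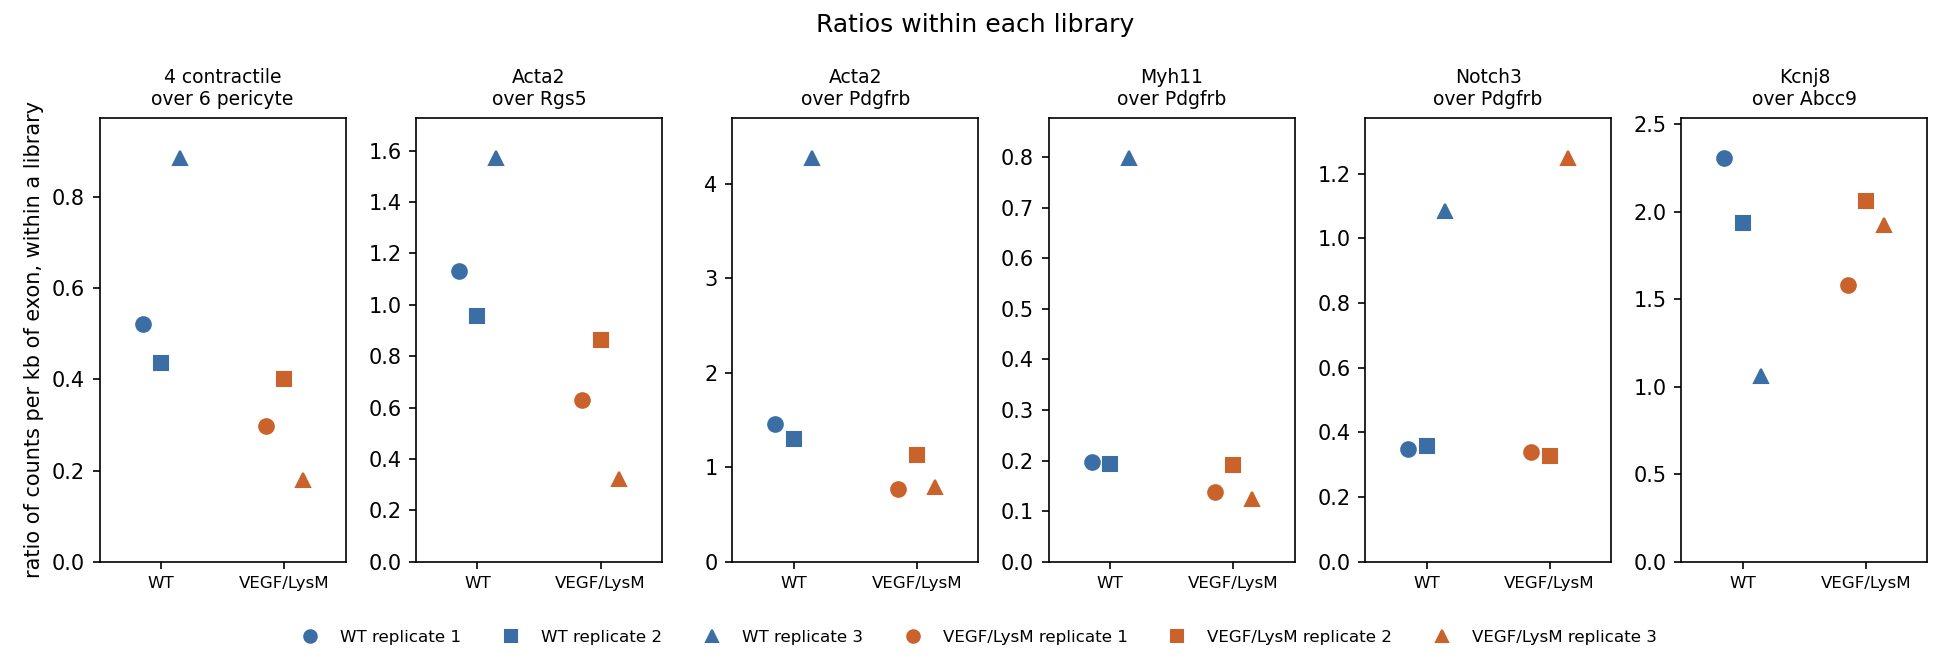
Ratio of counts per kb of exon within each library (vertical axes start at 0), WT in blue and VEGF/LysM in orange, with the shape giving the replicate. The summed contractile over pericyte ratio is 0.436 to 0.886 in WT and 0.180 to 0.400 in VEGF/LysM, and Notch3 over Pdgfrb is 1.08 and 1.25 in the replicates labelled 3 and at most 0.357 elsewhere.

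By level per length, averaged over the 6 libraries, Rgs5 was the highest at 18.6 CPM per kb of exon, followed by Acta2 at 16.9 and Pdgfrb at 11.4. Rgs5 and Acta2 changed order between libraries: Acta2 was above Rgs5 in WT replicates 1 and 3 and below it in the other 4. Kcnj8 (6.54), Notch3 (6.39), Abcc9 (3.75) and Myh11 (2.80) came next, and Cspg4 (1.79), Tagln (1.22) and Cnn1 (0.835) were the lowest. Kcnj8 exceeded Notch3 in the 4 libraries with replicate number 1 or 2 and lay below it in both labelled 3. In WT replicates 1 and 2 Tagln stood at 0.0914 and 0.0711 times Acta2 per kb. The order was not the same in every library: Notch3 was above Pdgfrb per kb in WT replicate 3 (8.88 against 8.19 CPM per kb), and in VEGF/LysM replicate 3 Notch3 (12.2) was above both Pdgfrb (9.81) and Acta2 (7.80).

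Of 20 other genes of the contractile apparatus that were tested, 0 passed and 12 were below 0. Their log2 fold changes ran from -1.85 to 0.33, and the median was -0.18, or -0.07 when WT replicate 3 was left out. The 3 with the smallest p were Des, the muscle intermediate filament desmin (-0.42 ± 0.19, SE), Myl9 (-0.44 ± 0.21) and Mustn1 (-1.10 ± 0.56, or -0.31 without WT replicate 3), each with an adjusted p of 0.999 in edgeR. Myl9, whose promoter element is printed above, stood at 44.5, 40.9 and 40.7 CPM across the WT libraries, against 29.5, 39.8 and 23.4 CPM across those of VEGF/LysM. Its groups did not overlap, WT replicate 3 did not stand apart from WT replicates 1 and 2, and VEGF/LysM replicate 2 was again the highest of its group. Non-overlap with VEGF/LysM the lower also held for Lmod1 and Ppp1r14a, 3 of 20 genes in all, beside 2.41% of all genes.

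WT replicate 3 was not uniformly high for contractile genes. Of the 20, 5 exceeded 2 times the mean of WT replicates 1 and 2, beside 11.9% of all genes tested, and the median ratio was 1.08. Among the contractile members Acta2, Myh11 and Cnn1 exceeded it and Tagln did not. Cald1 (caldesmon) was at 2.53 times, Mylk (myosin light chain kinase) at 2.06 times and Actg2, the actin of gut smooth muscle, at 6.41 times on 4 to 87 counts, while Tpm1 (tropomyosin) was at 0.704 times. Those 4 were named after their values were seen. The summed level of 10 genes of artery wall matrix was 0.606 times that mean in WT replicate 3, and that of 13 striated muscle genes was 1.14 times. Mgp, the most abundant of the 10 artery wall genes, was at 217, 174 and 64.8 CPM across the WT libraries. Eln went the other way, at 24.1, 19.4 and 43.3 CPM. Gene by gene, the ratio over these 10 ran from 0.332 to 1.99, with a median of 0.767. Actins shared by all cells were steadier, with Actb at -0.24 ± 0.17 (SE) and Actg1 at -0.01 ± 0.15 on the log2 fold scale.

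Regulators of the contractile program showed no gene past the test, with 4 of 10 tested below 0 and a median of 0.05 (1 of 10 and 0.09 without WT replicate 3). Srf was at 53.5, 52.5 and 62.1 CPM across the WT libraries, against 43.9, 66.4 and 58.6 CPM across those of VEGF/LysM, overlapping throughout. Myocd, the smooth muscle coactivator, had 2 to 9 counts in any library and was below the filter. The smallest p values belonged to Gata6 (0.23 ± 0.25, SE, or 0.0063 ± 0.17 without WT replicate 3), Mrtfa (-0.24 ± 0.26, or 0.096 ± 0.16 without WT replicate 3) and Mrtfb (0.12 ± 0.16), all with an adjusted p of 0.999 in edgeR. Mrtfa and Mrtfb encode SRF coactivators, and Gata6 a transcription factor of smooth muscle and of the steroidogenic cortex.

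Other pericyte and mural genes had 0 of 22 past the test, 13 below 0 and a median log2 fold change of -0.10 (-0.09 without WT replicate 3). The 3 with the smallest p were Vtn, Des and Anpep. Vtn, which encodes vitronectin and is made by both pericytes and hepatocytes, stood at 2.62, 3.45 and 1629 CPM across the WT libraries, against 1.64, 3.68 and 8.77 CPM across those of VEGF/LysM, so its log2 fold change of -6.86 ± 2.58 (SE) rested on the library with liver markers and was 0.62 ± 0.60 without it. Anpep, an aminopeptidase of pericytes, kidney tubules and liver, was at 106 CPM in WT replicate 3 and at 12.4 to 17.7 CPM elsewhere. Art3 was the 1 gene of the 22 whose VEGF/LysM values (24.6, 25.7 and 27.4 CPM) all exceeded those of WT (21.4, 23.9 and 19.5 CPM), beside 3.54% of all genes.

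Partners of Pdgfrb and Notch3 had 0 of 18 past the test, 10 below 0 and a median of -0.08 (11 and -0.07 without WT replicate 3). Dll1, a Notch ligand, had the smallest p: it stood at 7.39, 5.67 and 8.99 CPM across the WT libraries, against 3.52, 4.36 and 5.30 CPM across those of VEGF/LysM, which gave -0.74 ± 0.29 on the log2 fold scale (SE; unadjusted p = 0.0383, adjusted p = 0.999 in edgeR). For Dll1 without WT replicate 3 the value was -0.57 ± 0.30 (unadjusted p = 0.0897 in edgeR). Hey1, a Notch target, had -0.34 ± 0.27 (-0.39 ± 0.32 without WT replicate 3), and Notch4, the endothelial receptor, had 0.18 ± 0.14. The groups did not overlap, with VEGF/LysM the lower, for 2 of the 18 genes (Dll1 and Hey1), beside 2.41% of all genes. Heyl, a Notch target of mural cells, stood at 14.4, 15.6 and 13.5 CPM across the WT libraries, against 13.6, 12.6 and 11.5 CPM across those of VEGF/LysM and was not raised in the libraries where Notch3 was high. Pdgfb, the ligand of Pdgfrb, stood at 79.7, 77.9 and 28.9 CPM across the WT libraries, against 64.5, 54.4 and 59.2 CPM across those of VEGF/LysM. Its log2 fold change was -0.07 ± 0.36, or -0.41 ± 0.14 without WT replicate 3 (unadjusted p = 0.017), and it did not pass in either fit after edgeR adjustment. Heyl and Pdgfb were named after their values were seen. Rgs16, a relative of Rgs5, was at 260 CPM in WT replicate 3 and at 2.46 to 4.43 CPM elsewhere, whereas Rgs2, Rgs3, Rgs4 and Rgs10 had log2 fold changes between -0.15 and 0.21.

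**Figure D5:**
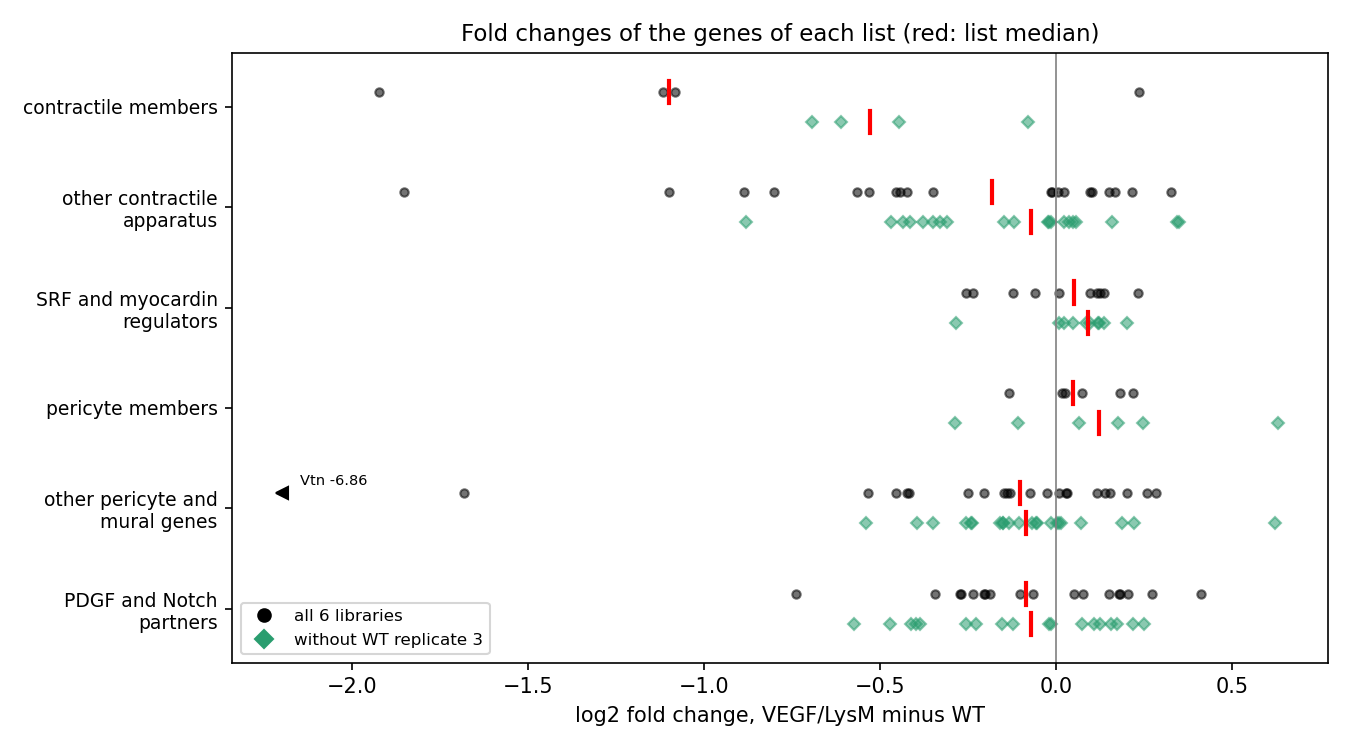
Log2 fold change of each tested gene in 6 lists, over all 6 libraries (black) and without WT replicate 3 (green), with the list median as a red bar; Vtn, at -6.86, is drawn at the left edge as a triangle. The contractile members lie at a median of -1.10 and -0.53, and the other lists between -0.18 and 0.12.

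The genes nearest to each pattern were found by the root mean square difference of centred log2(CPM + 0.5), among genes with a mean of at least 5 CPM. Over 6 libraries and 12148 genes, those nearest to the contractile median were C130074G19Rik (0.140), Ldha (0.191), Mmp15 (0.199), Lhpp (0.199) and Gstm4 (0.229), with a median of 0.742 over all genes compared. With that WT library set aside, over 11934 genes, they included Hr (0.060), Ier5 (0.066), Jph2 (0.071) and Thrsp (0.086), with a median of 0.413, and none of these 4 was among the 5 nearest over 6 libraries. Nearest to the pericyte median over 6 libraries were Manba (0.030), Tmem41b (0.032), Ogfod1 (0.032), Wipf2 (0.035) and Trmt5 (0.040), beside a median of 0.251. Without WT replicate 3 they included Fyttd1, Ammecr1l, Peak1 and Manba (0.020 to 0.028, beside 0.205). The members form the medians they would be compared with, so their own distances only describe the spread within each group: from 0.076 (Acta2) to 1.08 (Tagln) in the contractile genes and from 0.156 (Kcnj8) to 0.582 (Notch3) in the pericyte genes, over 6 libraries.

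Markers of other cells moved in part with these genes. In VEGF/LysM replicate 3, where Acta2, Myh11 and Cnn1 were lowest, 12 capsule and fibroblast markers summed to 538 CPM, against 833 to 1044 CPM in the other 5 libraries, and 8 chromaffin markers to 10961 CPM, against 4439 to 8270 CPM. Endothelial markers, 12 in all, summed to 808 to 984 CPM over the WT libraries, with 862 to 981 CPM over VEGF/LysM, and 10 artery wall matrix genes to 214 to 361 CPM and 222 to 336 CPM. None of these 4 lists had a marker at 0 counts in any library. In VEGF/LysM replicate 1, where Acta2 was also low, the capsule and fibroblast sum was 902 CPM, within the range of WT. The sum of 10 adipocyte markers was low in that library, at 3542 CPM against 6009 to 8660 CPM in the other 5. Of these markers, Cfd was at 504 CPM there, against 1341 to 2846 CPM. The groups separated, as for Acta2, in the sums of 6 proliferation and 14 lymphocyte markers. Proliferation sums spanned 46.6 to 81.2 CPM among WT libraries, above the 34.0 to 43.4 CPM of VEGF/LysM. Lymphocyte sums spanned 157 to 1250 CPM among WT libraries, above the 80.3 to 141 CPM of VEGF/LysM. Both lists peaked in WT replicate 3, as Acta2 did. Endothelial and artery wall matrix sums were instead lowest there, at 808 and 214 CPM. Mgp is the largest term of the artery wall sum, and Eln, of the same list, was highest in WT replicate 3 (43.3 CPM). The part of tissue composition in the Acta2 values was not tested.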

How the data were processed

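The authors deposited 1 table of whole-number counts per gene for 6 libraries, not normalised, as the values show. The build mm10 and the tools kallisto and DESeq2 1.36.0 are listed per the submitters' processing notes, which assign them no role, and of annotation nothing is given in the sources used here. Per the labels' protocols, libraries followed Smart-seq2, which does not mark strand. Columns were matched to samples by title, and symbols by gene identifier (54409 of 54532). Genes passing filterByExpr (minimum count 10, minimum total 15) were scaled by TMM and tested with edgeR 4.0.16 under R 4.3.3 (quasi-likelihood, group only), with Benjamini-Hochberg adjustment over all genes at 0.05. TMM factors were 1.02 to 1.05, and 0.84 in WT replicate 3. All 10 genes passed the filter. CPM, ratios and sums were computed here. Exon length is the union of GENCODE exons on GRCm38. An exact permutation of 3 against 3 cannot go below p = 0.1, so single values were not tested alone.

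The members and gene lists were chosen with earlier results of these data known. Named were the 10 members and Vegfa, the 3 genes of smallest p in each related list (all genes in lists under 6) and the 5 genes nearest to each pattern. Some genes that this rule names are not reported here. Alternatives were 3 other scalings, no filter, at least 1 CPM in 3 libraries, DESeq2 1.42.0, limma-voom with sample weights (limma 3.58.1), a replicate block and libraries left out. The steps were tested on simulated data, in which no library was set apart as WT replicate 3 is here.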

Additional observations from a re-analysis of the deposited data

How the results depend on the processing

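Of 15 alternatives, 14 left 0 genes called by the test used and 1 gave 1 gene (edgeR without WT replicate 3; leave-one-library-out range 0 to 1). DESeq2 called 0 genes (542 before adjustment, p under 0.05), sample-weighted limma-voom 0 (300) and the fit with the replicate number as a block 0 (270). Same-numbered libraries correlated at 0.064, -0.014 and 0.25 in their deviations from the group means, and differently numbered ones at -0.25 to 0.32. With 3 libraries per group these values cannot show whether the numbers pair the samples, and the labels do not say. Under the block Acta2 was at -1.08 and Tagln at 0.29. Acta2, Myh11, Cnn1 and Kcnj8 kept their direction in all 15, Acta2 between -1.44 and -0.50. Without both replicates labelled 3 the contractile median was -0.29 and contractile minus pericyte -0.28, and the cause was not tested. Leaving out 1 library each moved the contractile median from -1.42 to -0.53, the pericyte median from -0.04 to 0.12 and their difference from -1.49 to -0.65. Sample-weighted limma-voom on all 6 libraries gave a contractile median of -0.637 and contractile minus pericyte of -0.640, against -1.10 and -1.15 in the main fit. Directions turned, with no cause tested, as follows. With limma-voom Rgs5 was at -0.027 and Pdgfrb at -0.030. Without both replicates labelled 3 Tagln was at -0.078, Rgs5 at -0.04 and Notch3 at -0.07. Leaving out single libraries gave Tagln -0.081 to 0.56, Rgs5 -0.21 to 0.17, Pdgfrb -0.11 to 0.22, Cspg4 -0.29 to 0.16, Notch3 -0.49 to 0.63 and Abcc9 -0.20 to 0.25 (0.27 without both). Depth limits Tagln and Cnn1, which rest on 10 to 108 counts.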
